A study of Mus musculus with 6 samples.

Results

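Interferon-stimulated genes are the set of genes that a cell switches on when interferon binds its receptor. The 39 genes described here were taken by name from a list of interferon-induced antiviral, sensing and signalling genes, and a gene was kept if its mean over the 6 libraries was at least 0.5 RPKM (the reads on a transcript, divided by its length in kilobases and by the library's mapped reads in units of 1000000). All 39 of 39 passed, among 11595 genes that passed of 24940 in the table. Bone marrow-derived macrophages (BMMs), which are osteoclast precursors grown from mouse marrow, were kept for 3 days in one of 3 media. The -R cultures received M-CSF alone at 30 ng/mL, the +R cultures M-CSF and RANKL at 100 ng/mL, and the R+LE cultures M-CSF, RANKL and leaf extract (LE) of A. distichum at 10 μg/mL, so M-CSF was shared by all cultures. No gene was edited, and no -R culture received LE. By the labels the marrow was from C57BL/6 mice of 6 to 8 weeks and the cells grew in 48-well plates, whereas by the methods of the study it was from male ICR mice of 6 to 7 weeks and the plates had 6 wells. Each condition had 2 libraries, and nothing says that the pair came from separate animals or cultures, so the p-values measure the spread between these libraries, which may be technical.

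The libraries held between 29390212 and 34846384 mapped reads, of which 74.25% to 80.69% lay on genes. The ribosomal entry Rn45s took 4.97% to 6.83% of the reads on genes in -R, 10.87% to 11.06% in +R and 11.16% to 13.53% in R+LE. The labelled cell types were checked by their markers. The 6 macrophage markers in the table, Csf1r and Cd68 among them, summed to between 6389 and 7004 RPKM in -R, between 2606 and 3349 in +R and between 3630 and 4044 in R+LE. Lyz2 made up most of these sums, with means of 5317, 2132 and 3060 RPKM, while Csf1r had means of 338.4, 206.0 and 185.2 RPKM. With RANKL 5 of the 6 were lower at an adjusted p below 0.05 by limma, at any fold change. Itgam went the other way, with an estimate of 0.34 on the log2 scale (limma adjusted p = 0.0847). Its means were 70.5, 90.2 and 104.2 RPKM in the same order. After LE 4 of the 6 had higher estimates, whereas those of Csf1r and Cd68 were lower. The 8 osteoclast markers, Ctsk and Acp5 among them, summed to between 43.2 and 44.8 RPKM in -R, between 1866 and 2123 in +R and between 329.2 and 380 in R+LE. All 8 passed as higher in +R than in -R and as lower in R+LE than in +R. In bulk RNA, fewer cells of a type and less RNA per cell cannot be told apart.

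Type I interferons, interferon-α and interferon-β, bind the receptor chains IFNAR1 and IFNAR2, and the kinases JAK1 and TYK2 then phosphorylate STAT proteins, STAT2 among them. With IRF9 these form the complex ISGF3, which binds the interferon-stimulated response element (ISRE) in promoters, while interferon-γ acts through the GAS element. In osteoclast precursors RANKL is known to induce interferon-β through c-Fos, and interferon-β in turn lowers c-Fos protein and restrains osteoclast formation. Unstimulated macrophages keep a low tonic interferon signal that maintains many of these genes.

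Promoters are shown for 6 members that held an ISRE core. The 39 genes were chosen by name and not by sequence, but as interferon-induced genes, so the ISRE is not independent of that choice. These 6 were taken by largest absolute log2 fold change in +R against -R, as rounded, among the members found to hold a core. Rsad2, which also held a core, tied with Bst2 at -1.99 and is not shown. The 6 include both fallers and the gene that rose most, and not every member with a given promoter held a core. RefSeq promoters (build GRCm38.p6, 250 bases before to 50 bases after the annotated start) were given for 29 of the 39 members. The ISRE core was searched as GAAA, any 2 bases and GAAA on either strand, with overlapping matches counted once each. It is in capitals below, and reads TTTC, 2 bases, TTTC where it lies on the opposite strand. The windows, written 5' to 3' on the strand of the gene, were chr19:34583279-34583578 (+) for Ifit3, chr19:34607707-34608006 (+) for Ifit3b, chr5:92348840-92349139 (-) for Cxcl10, chr10:128270248-128270547 (+) for Stat2, chr5:120777610-120777909 (-) for Oas3 and chr8:71537423-71537722 (-) for Bst2.
Ifit3: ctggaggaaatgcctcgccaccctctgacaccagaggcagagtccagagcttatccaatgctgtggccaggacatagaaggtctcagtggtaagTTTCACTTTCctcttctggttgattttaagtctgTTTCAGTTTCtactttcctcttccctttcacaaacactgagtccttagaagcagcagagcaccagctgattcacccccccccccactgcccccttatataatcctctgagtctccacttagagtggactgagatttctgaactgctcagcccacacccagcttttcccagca
Ifit3b: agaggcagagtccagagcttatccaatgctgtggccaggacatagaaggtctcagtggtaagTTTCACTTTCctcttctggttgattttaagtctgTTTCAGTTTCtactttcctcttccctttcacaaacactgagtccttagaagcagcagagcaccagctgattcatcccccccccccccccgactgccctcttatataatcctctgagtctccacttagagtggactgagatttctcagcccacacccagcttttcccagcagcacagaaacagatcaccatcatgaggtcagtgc
Cxcl10: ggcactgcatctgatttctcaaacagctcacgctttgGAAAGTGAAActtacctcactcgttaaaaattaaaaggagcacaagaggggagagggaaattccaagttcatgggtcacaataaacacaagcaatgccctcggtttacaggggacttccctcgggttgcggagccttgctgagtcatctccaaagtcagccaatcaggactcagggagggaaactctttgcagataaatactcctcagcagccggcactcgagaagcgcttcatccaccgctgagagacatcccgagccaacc
Stat2: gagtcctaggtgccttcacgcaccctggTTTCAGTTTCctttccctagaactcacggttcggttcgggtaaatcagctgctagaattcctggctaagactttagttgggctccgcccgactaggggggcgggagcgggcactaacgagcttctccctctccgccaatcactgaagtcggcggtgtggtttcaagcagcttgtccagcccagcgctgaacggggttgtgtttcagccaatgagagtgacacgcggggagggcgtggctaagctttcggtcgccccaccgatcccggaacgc
Oas3: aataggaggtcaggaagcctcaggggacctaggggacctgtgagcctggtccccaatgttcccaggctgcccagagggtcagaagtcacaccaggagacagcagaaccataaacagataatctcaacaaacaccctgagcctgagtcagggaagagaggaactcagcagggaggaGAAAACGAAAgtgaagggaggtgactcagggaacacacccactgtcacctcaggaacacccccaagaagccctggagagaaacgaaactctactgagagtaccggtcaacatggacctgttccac
Bst2: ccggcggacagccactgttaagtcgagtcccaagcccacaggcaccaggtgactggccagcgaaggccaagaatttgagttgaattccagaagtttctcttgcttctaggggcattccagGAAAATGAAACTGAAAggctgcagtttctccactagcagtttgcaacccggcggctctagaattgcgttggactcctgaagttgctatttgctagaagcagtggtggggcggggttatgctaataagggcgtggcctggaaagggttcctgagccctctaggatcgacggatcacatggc

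Counted from the first base of the gene as 1, the ISRE cores of Ifit3 began at -156 and -122 and those of its neighbour Ifit3b at -188 and -154. The core began at -213 in Cxcl10, at -222 in Stat2 and at -75 in Oas3, and a pair overlapped at -130 and -124 in Bst2. Of the 29 promoters, 19 (65.5%) held an ISRE core, against 1131 of all 32851 RefSeq promoters of this length (3.44%). A GAS match (TTC, any 3 bases, GAA, which reads the same on both strands) was in 7 of the 29 (24.1%) and in 8.3% of all promoters. Members with and without an ISRE core in the window had median log2 fold changes of -1.49 and -1.48 in +R against -R. The 3 members with higher values in +R, Cxcl10, Gbp3 and Gbp2, all held a core. Called lower were 14 of the 19 members with a core and 7 of the 10 without, against 8.92% of all genes tested. A match is a run of letters and not a measured binding site.

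**Figure D1:**
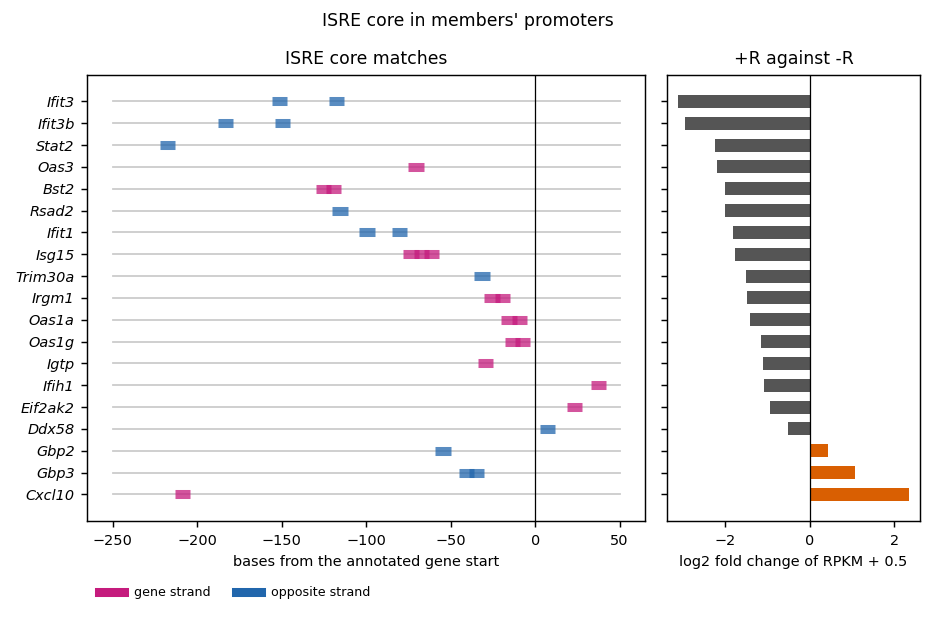
Matches to the ISRE core in the promoters of the 19 members that hold one, as distance in bases from the annotated start, on the strand of the gene or the opposite strand (left), beside the log2 fold change of RPKM + 0.5 in +R against -R (right). The matches lie between -222 and 42, and Cxcl10, Gbp3 and Gbp2 are the 3 bars to the right of 0.

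RANKL lowered most of the interferon-stimulated genes. In +R against -R, 30 of the 39 (76.9%) were called lower and 2 were called higher, where a gene is called at an adjusted p below 0.05 by limma and a fold change of at least 2. Of all genes tested, 8.92% were called lower and 6.58% higher in the same comparison. These shares also stand beside the counts by role and by pathway list given below for +R against -R. At an adjusted p below 0.05 and any fold change, 36 members were lower and 3 higher, against 21.5% and 23.9% of all genes. In the same 36 members both +R libraries lay below both -R libraries, and in the other 3 both lay above, against 35.0% and 40.3% of all genes. The median log2 fold change was -1.63, with a range from -3.10 for Ifit3 to 2.34 for Cxcl10, beside a median of 0.05 over all genes. All fold changes here are on the scale of log2(RPKM + 0.5), which understates the change of low genes. The RPKM of the 39 genes summed to 1984 and 2016 in -R, to 719.5 and 750.6 in +R and to 748.2 and 731.8 in R+LE.

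**Figure D2:**
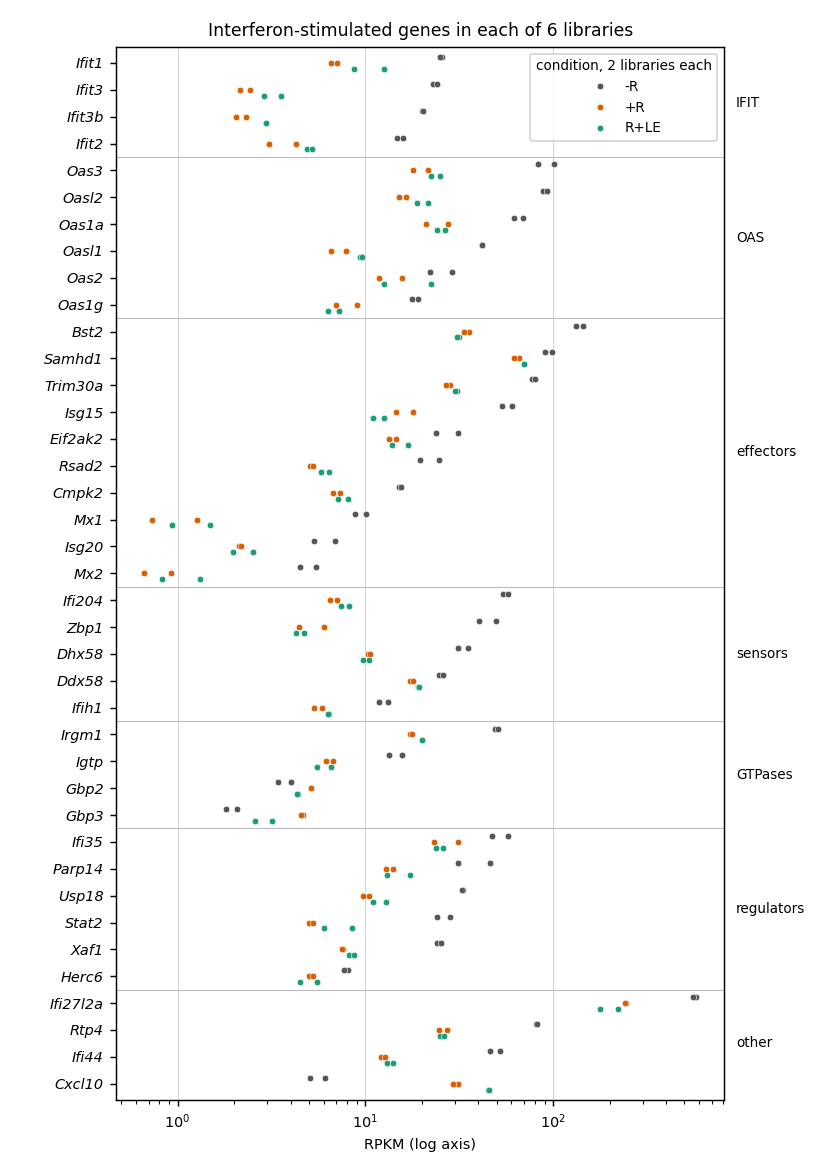
RPKM of the 39 interferon-stimulated genes in each of the 6 libraries on a log axis, with 2 points for each of -R, +R and R+LE, grouped by role. In most genes the -R points stand to the right of the others, and Cxcl10, Gbp3 and Gbp2 are the rows with the -R points to the left.

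Markers of other cells were measured beside this fall. The 3 inflammatory monocyte markers, Ly6c2, Ccr2 and Plac8, summed to 127.0 and 144.1 RPKM in -R, to 9.81 and 9.47 in +R and to 7.31 and 6.08 in R+LE, and none was at 0 in any library. Ly6c2 had a mean of 39.4 RPKM in -R, of 0.12 in +R and of 0.236 in R+LE, and Plac8 had means of 51.1, 0.142 and 0.677 RPKM. With RANKL the sum was nearly all Ccr2, whose means were 45.1, 9.38 and 5.78 RPKM. The 6 neutrophil markers summed to 17.3 and 15.6 RPKM in -R, to 0.645 and 0.673 in +R and to 2.53 and 0.592 in R+LE, with S100a9 and Mpo at 0 in all 4 libraries with RANKL. The 5 markers of plasmacytoid dendritic cells, the main producers of interferon-α, summed to 12.6 and 15.3 RPKM in -R, to 7.25 and 8.81 in +R and to 7.17 and 8.73 in R+LE. Tcf4, which other cells also express, made up most of this sum, at 10.6 and 12.7 RPKM in -R, at 6.99 and 8.77 in +R and at 7.01 and 8.61 in R+LE. The more specific Siglech was at 0.715 and 1.10 RPKM in -R and at 0.027 in both +R libraries, and Ccr9 was at 0.575 and 0.571 and at 0.015 in both. The part of these cells in the fall of the interferon-stimulated genes was not tested. The 5 T cell markers stayed at or under 0.317 RPKM in sum in every library, with Cd3e at 0 in all 6, and the 3 NK cell markers at or under 0.05. The 3 B cell markers summed to 1.85 and 1.31 RPKM in -R and to at most 0.124 in the other libraries, with Ms4a1 at 0 in every library with RANKL. The 4 conventional dendritic cell markers were at or under 1.15 and the 4 stromal markers at or under 15.3 in sum.

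The IFIT proteins, which bind viral RNA that lacks the cap methylation of the host, gave the lowest median among the role groups. All 4 IFIT genes were called lower in +R, and their median log2 fold change was -2.44. Ifit3 was at 22.8 and 24.0 RPKM in -R, at 2.14 and 2.43 in +R and at 2.89 and 3.56 in R+LE. Both +R libraries were far under the -R pair and the R+LE pair lay just above +R, and the log2 fold change in +R was -3.10 ± 0.15 (SE, n = 2 libraries a group, limma adjusted p = 2.11e-10). Ifit3b, its neighbour on chromosome 19, was at 19.95 and 20.3 RPKM in -R, at 2.04 and 2.32 in +R and at 2.95 and 2.96 in R+LE. Of the 100-base windows of the Ifit3 transcript 31.7% also occur in Ifit3b, and 27.4% the other way, so reads can be split between them and their separate levels are uncertain. Ifit1, which binds such RNA directly, was at 25.5 and 25.0 RPKM in -R, at 7.07 and 6.58 in +R and at 8.72 and 12.6 in R+LE. Ifit2 was at 14.8 and 15.9, 3.07 and 4.26, and 4.92 and 5.20 RPKM in the same order. In all 4 genes the 3 conditions did not overlap, with -R highest and +R lowest. The share of all genes in that order was not counted.

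The 2'-5'-oligoadenylate synthetases make the messenger that activates RNase L, and OASL proteins are related members with roles in RNA sensing and translation control. Of these 6 genes, 5 were called lower in +R, with a median of -1.81. Oasl2 was at 88.7 and 92.5 RPKM in -R, at 15.2 and 16.5 in +R and at 18.8 and 21.6 in R+LE, a log2 fold change of -2.48 ± 0.14 (SE, limma adjusted p = 1.57e-09). Oasl1, an inhibitor of Irf7 translation in the mouse, was at 42.0 and 41.8 in -R, at 6.55 and 7.87 in +R and at 9.41 and 9.58 in R+LE. Oas3 was at 100.5 and 83.0 RPKM in -R, at 17.99 and 21.5 in +R and at 22.5 and 25.0 in R+LE. These genes kept the order of the IFIT genes, with R+LE just above +R.

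Oas1a was at 61.9 and 69.3 RPKM in -R, at 21.0 and 27.6 in +R and at 26.6 and 24.1 in R+LE, so +R and R+LE overlapped. Oas1g was at 19.2 and 17.7, 7.01 and 9.06, and 7.21 and 6.33 RPKM, and it shares 38.2% of its windows with Oas1a. Its log2 fold change of -1.16 in +R was -0.99 without +R replicate 1, under the 2-fold limit. Oas2 was at 22.2 and 29.0 RPKM in -R, at 11.9 and 15.7 in +R and at 12.6 and 22.3 in R+LE, and its -0.87 ± 0.22 (SE, limma adjusted p = 0.00459) was under 2-fold. Its replicates were the most unequal of all members in R+LE, with a ratio of 1.77. The value for Oas2 was -1.06 without -R replicate 1 and -1.07 without +R replicate 2, both past 2-fold.

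The antiviral effectors act on the virus or on the cell that makes it. Of 10 genes, 8 were called lower in +R, with a median of -1.64. Mx1 and Mx2 encode dynamin-like GTPases, and Mx1 is defective in many inbred strains, C57BL/6 among them. Mx1 was at 8.79 and 10.0 RPKM in -R, at 0.727 and 1.27 in +R and at 0.931 and 1.49 in R+LE, a log2 fold change of -2.75 ± 0.21 (SE, limma adjusted p = 3.89e-08) in +R. Mx2 was at 4.48 and 5.48, 0.663 and 0.920, and 0.829 and 1.31 RPKM. In both the -R pair stood apart and +R and R+LE overlapped.

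Bst2, the tetherin that holds budding virions on the cell surface, was at 133.0 and 144.1 RPKM in -R, at 35.6 and 33.5 in +R and at 31.6 and 30.6 in R+LE. It had fallen in +R (-1.99 ± 0.14 SE, limma adjusted p = 2.01e-08), and R+LE lay slightly below +R without overlap. Rsad2, which encodes viperin, was at 19.6 and 24.7 RPKM in -R, at 5.05 and 5.27 in +R and at 5.83 and 6.42 in R+LE. Its neighbour Cmpk2, a mitochondrial nucleotide kinase read from the other strand on chromosome 12, was at 15.2 and 15.5, 6.69 and 7.32, and 8.11 and 7.18 RPKM. The log2 fold changes of the pair in +R were -1.99 and -1.08. Isg15, a ubiquitin-like modifier, was at 53.3 and 60.1 RPKM in -R, at 14.6 and 18.02 in +R and at 12.5 and 10.96 in R+LE. It was the member with the lowest level in R+LE relative to +R after Gbp3.

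Trim30a, a ubiquitin ligase that restrains NF-κB signalling, was at 77.0 and 79.9 RPKM in -R, at 28.1 and 26.8 in +R and at 30.7 and 30.1 in R+LE. Isg20, an exonuclease, was at 6.92 and 5.34, 2.13 and 2.17, and 2.51 and 1.96 RPKM. Both were called lower in +R, by -1.50 and -1.31. The remaining effectors missed the 2-fold limit. Eif2ak2, which encodes the kinase PKR, was at 23.8 and 31.1 RPKM in -R and 13.4 and 14.5 in +R, and its log2 fold change of -0.94 was -1.13 without -R replicate 1. Samhd1, which hydrolyses dNTPs, was at 91.0 and 98.8 RPKM in -R and 65.6 and 62.2 in +R, a change of -0.57 ± 0.14 (SE, limma adjusted p = 0.00442).

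Of the 5 nucleic acid sensors 4 were called lower, with a median of -1.63. Zbp1, a sensor of Z-form nucleic acid that starts necroptosis, was at 49.4 and 40.5 RPKM in -R, at 4.46 and 6.05 in +R and at 4.25 and 4.70 in R+LE, a log2 fold change of -2.99 ± 0.16 (SE, limma adjusted p = 9.40e-10). Ifi204, a DNA sensor of the PYHIN family, was at 54.4 and 57.4 RPKM in -R, at 6.52 and 7.10 in +R and at 7.45 and 8.17 in R+LE. It changed by -2.95, and 16.8% of its windows occur in related genes, Ifi211 foremost. The RNA helicases spread more widely. Dhx58 (LGP2) was at 35.3 and 31.2 RPKM in -R, at 10.3 and 10.5 in +R and at 10.4 and 9.73 in R+LE. Ifih1 (MDA5) was at 11.8 and 13.1, 5.32 and 5.86, and 6.43 and 6.31 RPKM. Ddx58 (RIG-I) was at 24.8 and 25.8 RPKM in -R, at 17.3 and 17.9 in +R and at 19.2 and 19.4 in R+LE. Their log2 fold changes in +R were -1.63, -1.09 and -0.51, so within this family LGP2 mRNA was lowered most and RIG-I mRNA least, with intervals from -1.92 to -1.34 and from -0.80 to -0.23 that did not meet.

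The interferon-inducible GTPases, which take part in defence against intracellular pathogens, split in direction. Irgm1 was at 49.1 and 50.9 RPKM in -R, at 17.3 and 17.7 in +R and at 19.9 and 20.1 in R+LE, and Igtp (Irgm3) was at 13.3 and 15.7, 6.198 and 6.70, and 6.56 and 5.55 RPKM. Both immunity-related GTPases were called lower in +R, by -1.49 and -1.11, the latter -0.99 without -R replicate 2. Gbp3 and Gbp2, which encode guanylate-binding proteins, had higher values in +R. Gbp3 was at 2.07 and 1.81 RPKM in -R, at 4.65 and 4.52 in +R and at 3.198 and 2.59 in R+LE, so +R was highest and R+LE lay between. It was called higher in +R (1.06 ± 0.16 SE, limma adjusted p = 5.68e-05), but at 0.99 without -R replicate 2 and at 0.93 with a pseudocount of 1 it fell under 2-fold. Gbp2 was at 3.999 and 3.41 RPKM in -R, at 5.16 and 5.15 in +R and at 4.38 and 4.32 in R+LE, a log2 fold change of 0.43 ± 0.14 (SE, limma adjusted p = 0.0231) in +R.

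Of the 6 regulators 4 were called lower, with a median of -1.55. Stat2, a component of ISGF3, was at 24.1 and 28.2 RPKM in -R, at 5.00 and 5.23 in +R and at 5.99 and 8.49 in R+LE. It had the largest fall among the regulators, -2.24 ± 0.16 (SE, limma adjusted p = 2.75e-08). Usp18, which removes ISG15 from proteins and blocks signalling at IFNAR2, was at 33.2 and 32.8 RPKM in -R, at 9.75 and 10.5 in +R and at 10.9 and 12.9 in R+LE. Xaf1, a proapoptotic protein, was at 24.2 and 25.3, 7.61 and 7.53, and 8.18 and 8.66 RPKM. Parp14, a mono-ADP-ribosyltransferase, was at 31.1 and 46.1 RPKM in -R, the most unequal pair of that condition, and at 12.9 and 14.005 in +R. These 3 fell by -1.66, -1.64 and -1.46. Ifi35 was at 57.2 and 47.1 RPKM in -R and 23.3 and 31.0 in +R, and Herc6, the mouse ligase for ISG15, at 8.05 and 7.72 in -R and 4.99 and 5.25 in +R. Their log2 fold changes of -0.94 and -0.58 missed the 2-fold limit, and Ifi35 was at -1.07 without -R replicate 2 and -1.14 without +R replicate 2. Exons of Ifi35 overlap the antisense gene Gm11626 by 290 bases and those of Herc6 overlap Gm45193 on the same strand, and since reads were counted without regard to strand such pairs cannot be told apart.

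The last 4 members have other roles. Ifi27l2a, a small mitochondrial protein gene, had the highest level of all members in every condition, at 578.4 and 556.5 RPKM in -R, at 244.6 and 240.8 in +R and at 221.6 and 178.2 in R+LE. Rtp4, a chaperone of receptors, was at 80.9 and 81.6, 24.6 and 27.1, and 25.0 and 26.2 RPKM, and Ifi44 was at 46.3 and 51.8, 12.1 and 12.7, and 13.04 and 14.1 RPKM. These 3 were called lower in +R, by -1.22, -1.64 and -1.94. Cxcl10 encodes a chemokine that draws CXCR3-bearing T cells and is induced by NF-κB as well as by interferons. It was at 6.07 and 5.09 RPKM in -R, at 31.1 and 29.2 in +R and at 44.9 and 45.5 in R+LE. The order was thus -R, +R and R+LE with no overlap, and the step from -R to +R ran opposite to that of most members. The log2 fold change in +R was 2.34 ± 0.14 (SE, limma adjusted p = 2.87e-09). Its exons overlap those of Art3 on the opposite strand by 133 bases.

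**Figure D3:**
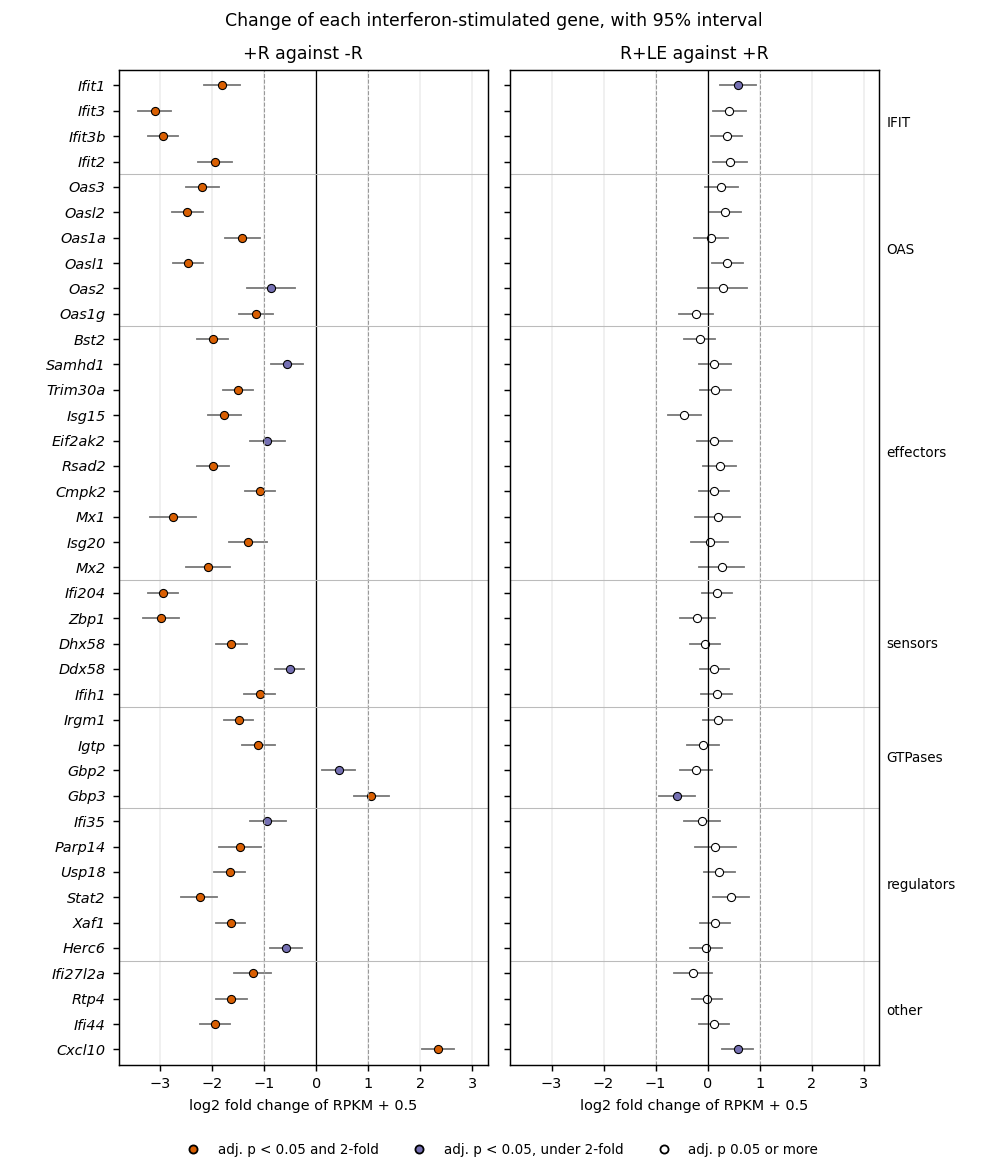
Log2 fold change of RPKM + 0.5 for each member in +R against -R (left) and in R+LE against +R (right), with the 95% interval of limma as a bar and dashed lines at 2-fold. On the left 36 points lie below 0 and 3 above, and on the right no interval reaches either dashed line.

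With LE the changes of these genes were estimated at under 2-fold. In R+LE against +R, 0 of the 39 members were called by limma. Calls were also few among all genes, at 1.46% higher and 1.78% lower, so this count does not set the members apart. By limma, 10 members had an unadjusted p below 0.05, but the share of all genes at that threshold was not counted. With limma voom on the recovered reads 0 members were called. At an adjusted p below 0.05 and any fold change, 2 members were higher and 1 lower, against 5.19% and 6.86% of all genes. This count does not set the members apart either. That total of 3 was 1 without +R replicate 2 or without R+LE replicate 2, and 7 without R+LE replicate 1. The median log2 fold change was 0.14, beside -0.05 over all genes. Estimates were above 0 for 27 members and below 0 for 12, but those of Rtp4 and Herc6 turned positive once each library was centred on its median. Both R+LE libraries lay above both +R libraries in 19 members and below them in 5, against 19.5% and 29.5% of all genes, and 15 members overlapped. Each 95% interval, taken singly, lay inside a 2-fold change, with the outermost bounds at 0.93 for Ifit1 and -0.93 for Gbp3.

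The 3 members past the adjusted p were Ifit1, Cxcl10 and Gbp3. Ifit1 was higher by 0.59 ± 0.16 (SE, limma adjusted p = 0.0269), with means of 10.67 ± 2.76 RPKM in R+LE and 6.83 ± 0.351 in +R (SD, n = 2). Without R+LE replicate 2, the higher library, the estimate was 0.33 (limma adjusted p = 0.221), and over all alternatives the adjusted p ran from 0.00173 to 0.221. Cxcl10 was higher by 0.58 ± 0.14 (SE, limma adjusted p = 0.0124), with 45.21 ± 0.422 against 30.17 ± 1.33 RPKM (SD, n = 2), and its adjusted p ran from 0.00113 to 0.0898, the latter without +R replicate 2. Gbp3 was lower by -0.59 ± 0.16 (SE, limma adjusted p = 0.0234), with 2.90 ± 0.429 against 4.59 ± 0.0877 RPKM (SD, n = 2), and at -0.46 its adjusted p was 0.16 without R+LE replicate 2. The adjusted p of Gbp3 was also 0.101 without +R replicate 1 and 0.0685 without +R replicate 2. The estimates of Cxcl10 and Gbp3, both higher with RANKL, differed in direction after LE, but neither gene kept the adjusted p in every alternative.

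By role, the median log2 fold change in R+LE against +R was 0.42 for the IFIT genes, 0.28 for the OAS genes, 0.13 for the effectors, 0.13 for the sensors, -0.15 for the GTPases, 0.15 for the regulators and 0.05 for the others. All 4 IFIT genes had both R+LE libraries above both +R libraries, as had 3 of the 6 OAS genes, Oas3, Oasl1 and Oasl2. Among all genes tested, 19.5% did so. Of these IFIT and OAS genes only Ifit1 was past the adjusted p. Stat2 was at 0.44 (limma adjusted p = 0.0993), and Isg15 at -0.45 (limma adjusted p = 0.0652), neither past the threshold.

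The R+LE cultures therefore still differed from the cultures without RANKL, a comparison in which RANKL and LE cannot be told apart. In R+LE against -R, 29 of the 39 members (74.4%) were called lower and 1, Cxcl10, higher, against 6.36% and 3.92% of all genes. The median was -1.44, beside -0.01 over all genes, and the range ran from -3.18 for Zbp1 to 2.92 for Cxcl10. The comparisons share their libraries, so their values are set side by side and not related by a statistic. Ifit3 was at -3.10 in +R and -2.69 in R+LE, Stat2 at -2.24 and -1.80, Ifit1 at -1.81 and -1.23, and Isg15 at -1.77 and -2.23, each against -R. Without R+LE replicate 1, Ifit1 was at -0.97 in R+LE against -R, under 2-fold. Gbp3 was at 0.47 (limma adjusted p = 0.0305) and Gbp2 at 0.21 (limma adjusted p = 0.283) in R+LE against -R. Oas2 was the member whose libraries overlapped, at 12.6 and 22.3 RPKM in R+LE and 22.2 and 29.0 in -R.

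The pathway above these genes was followed from the ligands down. No reads fell on Ifnb1, Ifna1, Ifna2, Ifna4, Ifna5, Ifnl2 or Ifnl3 in any of the 6 libraries, which allows up to 3 reads in each. Ifng had 2 reads in -R replicate 1 and 0 in the others. Of the 18 type I interferon genes found by symbol in the table, a look added after the values of the list were known, 16 had no read in any library. The exceptions were Ifnz, with 2 reads in -R replicate 2 alone, and Ifnk, an interferon known from keratinocytes. The -R libraries held 6 and 8 reads of Ifnk, those with +R held 0 and 4, those with R+LE held 2 and 5, and its level was at most 0.281 RPKM. The receptor chains and kinases were expressed throughout. Ifnar1 was at 19.2 and 23.2 RPKM in -R, at 22.8 and 20.5 in +R and at 24.3 and 23.5 in R+LE, and its groups overlapped between -R and +R. Ifnar2 was at 55.2 and 56.5 RPKM in -R, at 30.6 and 29.8 in +R and at 41.0 and 31.5 in R+LE, a log2 fold change of -0.88 ± 0.15 (SE, limma adjusted p = 0.000232) in +R, under 2-fold. Ifngr1, the ligand-binding chain for interferon-γ, was at 20.1 and 20.2 RPKM in -R, at 51.6 and 42.3 in +R and at 44.6 and 35.6 in R+LE. It was the 1 of these 7 genes that was called, higher by 1.19 (limma adjusted p = 1.5e-05) in +R. Jak2 rose by 0.56 and Tyk2 fell by 0.47 on the log2 scale in +R (limma adjusted p = 0.0073 and 0.0285), and Jak1 was at -0.21 (limma adjusted p = 0.266). With LE 0 of the 7 were called, against 1.46% of all genes called higher and 1.78% called lower, so this count does not set them apart.

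Of the 7 transcription factors 4 were called lower in +R, against 8.92% of all genes. Irf7, the factor that amplifies type I interferon transcription and is itself interferon-stimulated, was at 469.4 and 446.4 RPKM in -R, at 40.0 and 42.4 in +R and at 55.4 and 51.4 in R+LE. Irf8, a myeloid factor known to restrain osteoclast formation, was at 66.9 and 65.2 RPKM in -R, at 4.07 and 5.21 in +R and at 7.88 and 6.76 in R+LE. Their log2 fold changes in +R, -3.46 (limma adjusted p = 7.94e-11) and -3.70 (limma adjusted p = 4.12e-11), were below that of every one of the 39 members. Irf5 was at 135.0 and 132.6 RPKM in -R, at 43.2 and 42.1 in +R and at 66.1 and 66.7 in R+LE. Irf9, the partner of Stat2 in ISGF3, was at 31.8 and 34.2, 13.3 and 13.4, and 14.1 and 15.4 RPKM. Stat2 and Irf9 thus both fell, by -2.24 and -1.27. Irf2 was at -0.98 (limma adjusted p = 3.59e-05), Irf3 at 0.41 (limma adjusted p = 0.0198) and Irf1 at 0.10 (limma adjusted p = 0.563). With LE 0 of the 7 were called, a count that does not set them apart from all genes (1.46% called higher and 1.78% lower). Irf5 and Irf8 were higher by 0.63 (limma adjusted p = 0.00723) and 0.61 (limma adjusted p = 0.0128), under 2-fold.

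Among 6 inhibitors of the pathway, Socs3 was the 1 called, from 0.638 and 0.496 RPKM in -R to 2.95 and 2.77 in +R and to 2.62 and 2.72 in R+LE. Its log2 fold change in +R was 1.66 ± 0.17 (SE, limma adjusted p = 1.4e-06). Ptpn6, which encodes the phosphatase SHP-1, was higher by 0.89 (limma adjusted p = 0.000374) and Ptpn1 lower by -0.64 (limma adjusted p = 0.00115). Socs1 was at 1.01 and 0.992 RPKM in -R and 0.777 and 1.58 in +R, which overlapped. Of 12 sensing and adaptor genes upstream of interferon, 5 were called lower in +R, Tlr4 among them, and 1, Traf3, higher. Of all genes, 8.92% were called lower and 6.58% higher. With LE 0 of the 12 were called, where 1.46% of all genes were called higher and 1.78% lower, so this count does not set them apart. Ikbke, an interferon-inducible kinase of IRF3 and IRF7, was at 22.9 and 20.5 RPKM in -R, at 6.91 and 6.98 in +R and at 11.1 and 13.8 in R+LE. It fell with RANKL by -1.58 (limma adjusted p = 3.86e-07), and in R+LE against +R it was at 0.79 (limma adjusted p = 0.00192). Its relative Tbk1 was at -0.40 (limma adjusted p = 0.0258) in +R and 0.01 with LE. Chosen after their values were seen, Tlr3, Tlr4 and Tlr7 were higher after LE, by 0.49, 0.61 and 0.57, and Tlr9 was lower, by -0.55, the 4 others of this list with an adjusted p below 0.05 by limma (0.049, 0.012, 0.0266 and 0.0446).

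**Figure D4:**
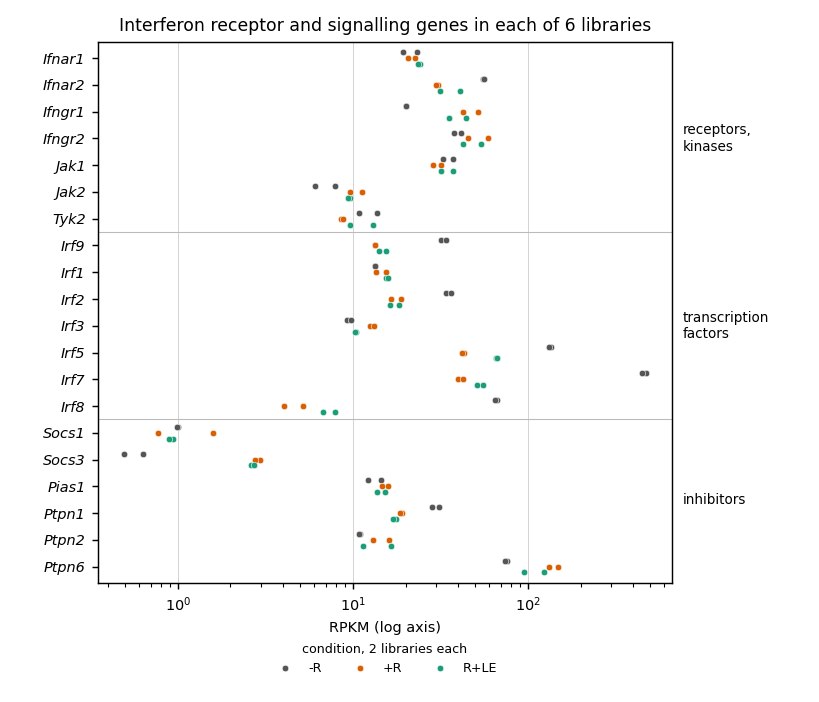
RPKM of the receptor chains, kinases, transcription factors and inhibitors of interferon signalling in each of the 6 libraries on a log axis, with 2 points for each condition. Irf7 and Irf8 show the widest gaps between -R and +R, and Ifngr1 and Socs3 have their -R points to the left.

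A further 60 interferon-stimulated genes were listed by hand, of which 57 were in the table and 53 were tested. In +R against -R 30 of the 53 (56.6%) were called lower and 3 higher, with a median of -1.05. Of all genes tested, 8.92% were called lower and 6.58% higher, so the 3 called higher do not stand out by their number. Those with the largest change were Ms4a4c (-5.04), Slfn1 (-4.74), Ccl5 (-3.40), Ms4a6b (-2.94) and Lgals9 (-2.59). Ccl5, a chemokine for T cells and monocytes, was at 25.2 and 23.4 RPKM in -R and 2.91 and 1.11 in +R, opposite in direction to Cxcl10. The 3 called higher were Gbp7 (1.85), Cxcl11 (1.78) and Gbp5 (1.01), of which Cxcl11 and Gbp5 were named after their values were seen, and Cxcl11 rested on 4 and 2 reads in -R. With LE 0 of the 53 were called, against 1.46% of all genes called higher and 1.78% called lower. The largest changes with LE were Gbp7 (-0.76, limma adjusted p = 0.00345), Gbp9 (-0.62, limma adjusted p = 0.0183), Sp110 (0.58, limma adjusted p = 0.00992), Psmb8 (-0.57, limma adjusted p = 0.0333) and Psmb9 (-0.55, limma adjusted p = 0.0278). Psmb8 and Psmb9 encode immunoproteasome subunits that trim peptides for MHC class I.

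The guanylate-binding protein genes were compared by their place in the genome. Gbp2, Gbp3, Gbp5 and Gbp7 lie on chromosome 3, and all 4 had both +R libraries above both -R libraries. Of all genes tested, 40.3% did so. Gbp7 was at 1.74 and 2.08 RPKM in -R, at 8.23 and 8.13 in +R and at 5.09 and 4.23 in R+LE, and Gbp5 was at 0.452 and 0.458, 1.49 and 1.36, and 0.969 and 1.03 RPKM. In all 4 the R+LE libraries lay between those of -R and +R. On chromosome 5, Gbp6 was at 1.18 and 1.10 RPKM in -R, at 0.583 and 0.409 in +R and at 0.361 and 0.443 in R+LE, and Gbp9 was at 3.94 and 4.67, 4.34 and 4.28, and 2.31 and 3.00 RPKM. Gbp6 was at -0.72 (limma adjusted p = 0.0133) and Gbp9 at 0.01 (limma adjusted p = 0.979) in +R against -R. The grouping by chromosome was made after the values were seen, and no test was made of it.

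**Figure D5:**
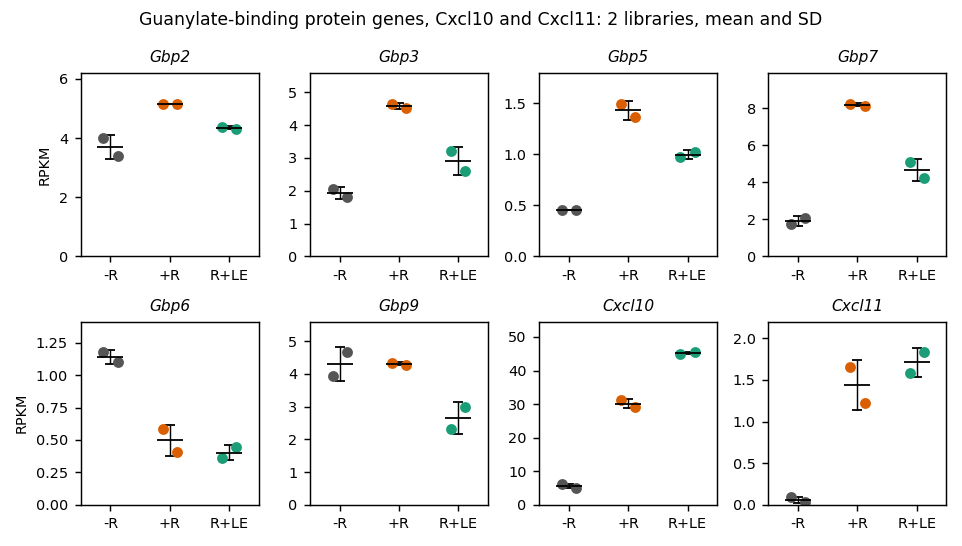
RPKM of 6 guanylate-binding protein genes, Cxcl10 and Cxcl11 in the 2 libraries of each condition (points), with the mean and SD, each panel on its own axis from 0. Gbp2, Gbp3, Gbp5 and Gbp7 peak in +R, and Cxcl10 is highest in R+LE, at 44.9 and 45.5.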

How the data were processed

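RNA from osteoclast precursors was sequenced by the authors as paired ends of 100 bases, aligned to mm10 and counted on exons with HOMER without regard to strand. The methods of the study name TopHat as aligner and the submitters' processing notes name HISAT2, HOMER and DESeq2. The deposited values are RPKM. Whole reads were recovered from RPKM and transcript length (at least 99.979% of checked values within 0.15 of a whole read), which gave the depth, and limits cover counting error only. Genes that averaged 0.5 RPKM or more were tested by limma version 3.58.1 in R 4.3.3 on log2(RPKM + 0.5), with 3 group means, a variance trend and Benjamini-Hochberg adjustment over 11595 genes. Calls needed an adjusted p below 0.05 and a 2-fold change. An exact permutation of 2 against 2 libraries cannot go below p = 0.333 and was not used. The script was tested on simulated data. Python 3.11.15, numpy 2.4.6, pandas 2.3.3 and matplotlib 3.10.9 were also used. The 39 members, the pathway and marker lists and the tests were chosen with earlier results of these data known, and some genes of the lists are not reported here. All members were named, with pathway genes by role and the 5 other interferon-stimulated genes of largest change in each comparison. Of the symbols, 26 had been turned into dates and were restored. Alternatives were other pseudocounts, filters, variance models, scalings, voom on recovered reads, a replicate block and leaving out each replicate.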

Additional observations from a re-analysis of the deposited data

How the results depend on the processing

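Over 17 alternatives to the main analysis, 31 to 34 members were called in +R against -R, 0 in R+LE against +R and 29 to 30 in R+LE against -R. Leaving out each replicate in turn gave 31 to 34, 0, and 29 to 30 calls, with medians from -1.64 to -1.56, from 0.10 to 0.18 and from -1.51 to -1.44. The median of +R against -R was -1.69 with voom, and that of R+LE against -R was -1.32 with quantile normalization and -1.36 with Rn45s left out of the depth. The cause of these shifts was not tested. With the replicate block the calls numbered 32, 0 and 30, as without it. At an adjusted p below 0.05 and any fold change, R+LE against +R had 4 members higher and 2 lower with the replicate block, where it had 2 and 1 without, the added ones being Ifit2, Stat2 and Isg15 (limma adjusted p = 0.0437, 0.0337 and 0.0296). With voom it had 6 higher and 1 lower. Deviations of same-numbered libraries correlated at -0.046, 0.107 and 0.249 over all genes and at 0.0954, 0.477 and 0.223 over the members, so the numbers were not taken as pairs.

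The signs that turned were all in R+LE against +R, in members not called there. With median centring Dhx58 was at 0.00, Rtp4 at 0.04 and Herc6 at 0.02, with quantile normalization at 0.00, 0.05 and 0.02, with voom Rtp4 at 0.03 and Herc6 at 0.01, and without Rn45s Rtp4 at 0.00. With each replicate left out in turn, Isg20 ran from -0.11 to 0.18, Mx1 from -0.07 to 0.46, Oas1a from -0.12 to 0.26, Oas2 from -0.11 to 0.69, Ifi35 from -0.32 to 0.09, Rtp4 from -0.08 to 0.06, Zbp1 from -0.40 to 0.00, Parp14 from -0.04 to 0.35, Igtp from -0.20 to 0.02, Herc6 from -0.18 to 0.11 and Eif2ak2 from -0.01 to 0.26. Of calls of single members, 4 were lost and 6 gained in +R against -R, and 6 were lost and 2 gained in R+LE against -R, counted over all alternatives, each close to 2-fold. With 2 libraries a group, a difference well under 2-fold could be missed.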
